A study of Mus musculus with 9 samples.

Results

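Ctgf, Cyr61, Nov, Wisp1 and Wisp2, which encode 5 CCN proteins, and Thbs1, Thbs2 and Thbs3, which encode 3 thrombospondins, were described in mouse lung after irradiation of the brain. The 8 genes were taken by symbol from the 22564 protein-coding genes of the deposited expression table, and all 8 passed the filter on low counts that left 14074 genes for testing. Ctgf and Thbs1 were lower in each of the 6 irradiated libraries than in each of the 3 sham libraries. Their fitted log2 changes were -1.52 and -1.53 after 3 weekly exposures and -1.61 and -1.70 after a single exposure. The irradiated groups were not shown to be alike. Per contrast, 11.1% of tested genes lay wholly below sham after 3 weekly exposures and 10.7% after a single exposure. The share below sham in both was not counted. Cyr61 averaged lower in both irradiated groups, but 1 sham library lay among the irradiated ones. Thbs3 was higher in each library of the 3 weekly exposures than in each library of the other groups. After 3 weekly exposures 10.8% of tested genes lay wholly above sham, and 4.10% wholly above a single exposure. Nov, Wisp1, Wisp2 and Thbs2 followed no common course.

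The lungs came from mice of the strain GFP-LC3, whose name refers to the autophagy protein LC3 carrying a green fluorescent tag, and every group shared this background. One group of 3 libraries followed whole-brain X-ray exposures of 10 Gy at 2 Gy per min that were repeated weekly over 3 weeks, another group of 3 followed 1 such exposure, and the last group of 3 was sham irradiated. The lung was not the irradiated organ, and the series asks about bystander effects there. The labels give no sex, no age and no interval between the last exposure and collection. Nothing states that each library came from its own animal, so the spread between libraries may be technical. In the 3 weekly exposures it was not wholly technical, because Y-linked transcripts were absent from library 3 only. Number of exposures, total dose and weeks on study differed together between the irradiated groups and cannot be told apart.

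CCN proteins and thrombospondins are matricellular proteins, which are secreted into the matrix and act on cells through integrins, proteoglycans and growth factors rather than as structural scaffold. Most CCN proteins are built from an insulin-like growth factor binding domain, a von Willebrand type C domain, a thrombospondin type 1 repeat and a cysteine-rich carboxy-terminal domain, the last of which is missing from Wisp2. Ctgf and Cyr61 are textbook targets of the coactivators YAP and TAZ with their TEAD partners, and both are also induced quickly by serum and stretch. Thrombospondin 1 is stored in platelet granules, binds CD36 and CD47 and can activate latent TGF-beta. In lung, Ctgf is best known for its part in fibrosis.

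The libraries held between 4987856 and 7381021 fragments. Alveolar type 2, alveolar type 1, club cell and endothelial markers were detected in all 9 libraries, with no marker of these lists at 0 throughout. Library 1 of the single exposure stood apart, where Myh6, a myosin of heart muscle, reached 5154 CPM, against 10.3 to 242 CPM in the other 8. CPM are counts scaled to a common library size with TMM factors. Its 8 smooth muscle markers summed to 3970 CPM, against 432 to 887 CPM in the other 8 libraries. Library 3 of the 3 weekly exposures had 0 fragments of 4 Y-linked genes, which had 1443 to 2070 in the other libraries. The libraries of that group therefore did not all come from the same animal, and sex may differ within it. Myh4, a myosin of skeletal muscle, had 4995 fragments in sham library 1 and 0 in the other 8. It also lay between the other sham libraries in 70.9% of tested genes, against 12.9 to 42.6% for the other libraries within their groups, so the sham values are not shown to be 3 independent measurements. Values of several members without sham library 1 or without library 1 of the single exposure are given below. With bulk tissue, fewer cells of a type and less RNA per cell cannot be told apart.

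The members spanned a wide range of levels. By the authors' FPKM, which are scaled for gene length, the median over 9 libraries was 52.1 for Ctgf, 47.0 for Thbs1 and 35.6 for Cyr61. It was 17.5 for Thbs3 and 16.9 for Wisp2, and 3.53, 1.55 and 0.816 for Nov, Wisp1 and Thbs2. Ctgf stood at the 92.8th and Thbs2 at the 5.07th percentile of the tested genes. The library ranges of the leading 3 genes overlapped (22.2 to 119 FPKM for Ctgf, 32.5 to 161 for Thbs1, 19.0 to 121 for Cyr61), as did those of Thbs3 (7.07 to 24.2) and Wisp2 (7.29 to 25.6), so the order within those sets is not beyond their spread.

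The set was drawn up with the lower values of Ctgf and Thbs1 against sham already known. Member differences from sham are therefore given as a description, with a standard error and no test. The contrast between the irradiated groups was not the basis of the choice and is tested.

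Ctgf encodes connective tissue growth factor, or CCN2, on chromosome 10, 24595442 to 24598683, plus strand, in 5 exons (GENCODE M21, GRCm38, positions from 1). It had 74.3, 149.6 and 124 CPM after 3 weekly exposures, 101, 91.6 and 132 CPM after a single exposure, and 328, 330.0 and 337 CPM in sham. The highest irradiated library lay below the lowest sham library. The mean was 116 ± 38.3 CPM after 3 weekly exposures and 108 ± 21.3 CPM after a single exposure, against 332 ± 4.56 CPM in sham (SD, n = 3 each).

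The fitted log2 change of Ctgf was -1.52 ± 0.25 for 3 weekly exposures and -1.61 ± 0.25 for a single exposure (SE, n = 3 against 3), which is 2.86-fold and 3.06-fold lower than sham. Both contrasts use the same sham libraries. Without sham library 1 the changes were -1.52 and -1.62, and without library 1 of the single exposure they were -1.51 and -1.57. Sham library 1 (328 CPM) lay near the midpoint of the other sham libraries (333 CPM), so leaving it out could hardly move the fitted changes. Without it the SE for a single exposure was 0.29. The deposited locus of Ctgf runs over 49243 bases and takes in the antisense transcript Gm15270, which overlaps the gene on the minus strand. The library kit was stranded, but the counting is not stated to use strand, so reads of the pair may not be separated.

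Thbs1 encodes thrombospondin 1 on chromosome 2, 118111876 to 118127133, plus strand, in 22 exons. It had 285, 241 and 353 CPM after 3 weekly exposures, 239, 239 and 308 CPM after a single exposure, and 832, 1170.0 and 543 CPM in sham. The lowest sham library was above the highest irradiated one. The fitted log2 change was -1.53 ± 0.28 for 3 weekly exposures and -1.70 ± 0.29 for a single exposure (SE, n = 3 against 3), or 2.89-fold and 3.24-fold lower than sham. Without sham library 1 the changes were -1.55 and -1.71, and without library 1 of the single exposure -1.53 and -1.63. Sham library 1 (832 CPM) lay near the midpoint of the other sham libraries (856 CPM), so leaving it out could hardly move the fitted changes. Without it the SE for a single exposure was 0.33. The noncoding transcript Gm29233 lies within Thbs1 on the minus strand. Without a stated use of strand, reads of the pair may not be separated.

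The sham libraries differed much more for Thbs1 than for Ctgf. The coefficient of variation within sham was 37.0% for Thbs1 and 1.37% for Ctgf, where counting error alone gives 1.54% and 2.34%. In the irradiated libraries the order turned, with 19.2% and 15.4% for Thbs1 and 33.0% and 19.7% for Ctgf after 3 weekly exposures and a single exposure. Across the 9 libraries their log2 CPM correlated at r = 0.87, but after removal of the group means r was 0.05, so the shared course lay between irradiated and sham libraries. The points share library and depth, and r is a description.

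Cyr61, or CCN1, encodes an angiogenic relative of connective tissue growth factor on chromosome 3, 145646976 to 145649981, minus strand. It had 52.2, 124 and 80.3 CPM after 3 weekly exposures, 46.0, 72.5 and 131 CPM after a single exposure, and 180.5, 293 and 68.7 CPM in sham. Sham library 3 lay below 4 of the 6 irradiated libraries, so the groups overlapped. The fitted log2 change was -1.08 ± 0.55 for 3 weekly exposures and -1.12 ± 0.55 for a single exposure (SE, n = 3 against 3). It was -1.47 and -1.51 without sham library 3, and -0.54 and -0.59 without sham library 2. Without library 1 of the single exposure, that group stood at -0.83 ± 0.55 against sham. Sham library 1 (180.5 CPM) lay next to the midpoint of the other sham libraries (181 CPM). The deposited locus of Cyr61 spans 946717 bases and takes in 7 other protein-coding genes, although the annotated gene has 3006.

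Within groups, Cyr61 went with Thbs1 (r = 0.69), Thbs3 (r = 0.60) and Ctgf (r = 0.53) over the 9 libraries after removal of the group means. Other pairs were closer, Nov with Thbs2 at 0.96 and Wisp2 with Thbs3 at 0.94. The sham library lowest in Cyr61 was also the lowest in Thbs1, and the sham library highest in Cyr61 was the highest in Thbs1.

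RefSeq (GRCm38.p6) gave promoters for 3 of the 8 members, Cyr61, Thbs2 and Thbs3. They are shown as a description, and promoters of Ctgf and Thbs1, the members lower in all irradiated libraries, are not among them. Each line holds the 250 bases before the start of transcription, 5′ to 3′ on the gene's strand, with capitals for a TEAD motif or a TATA motif.
Cyr61, chr3:145649986-145650235, minus strand: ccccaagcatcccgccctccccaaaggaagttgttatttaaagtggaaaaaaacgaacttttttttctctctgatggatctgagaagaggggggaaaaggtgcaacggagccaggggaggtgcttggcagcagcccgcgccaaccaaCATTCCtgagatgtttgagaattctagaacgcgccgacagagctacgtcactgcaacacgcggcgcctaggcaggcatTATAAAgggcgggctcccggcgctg
Thbs2, chr17:14694263-14694512, minus strand: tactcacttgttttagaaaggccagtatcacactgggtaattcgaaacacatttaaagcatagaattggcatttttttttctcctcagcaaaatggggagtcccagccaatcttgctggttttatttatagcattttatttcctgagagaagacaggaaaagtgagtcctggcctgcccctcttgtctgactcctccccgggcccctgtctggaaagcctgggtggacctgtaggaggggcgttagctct
Thbs3, chr3:89214930-89215179, plus strand: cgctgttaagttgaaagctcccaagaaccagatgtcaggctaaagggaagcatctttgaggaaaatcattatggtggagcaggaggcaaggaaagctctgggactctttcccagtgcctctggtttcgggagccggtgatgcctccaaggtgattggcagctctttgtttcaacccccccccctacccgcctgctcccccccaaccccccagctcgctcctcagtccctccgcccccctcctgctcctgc

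These and the next 50 bases were searched for the letters GGAATG (TEAD), TGANTCA (AP-1) and TGACGTCA (CRE) on both strands, TATAAA on the gene's strand, and the CArG box of serum response factor on both strands. Cyr61 held the TEAD letters on the opposite strand, read as CATTCC and starting 103 bases before the start, and TATAAA starting 25 bases before it. Thbs2 and Thbs3 held none of the 5 motifs. Of 32851 promoters of the same 300 bases, 14.7% held the TEAD letters, 8.32% TATAAA, 7.81% the AP-1 letters, 1.79% the CRE and 1.63% a CArG box. A match is a description of these letters and not of binding.

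**Figure D1:**
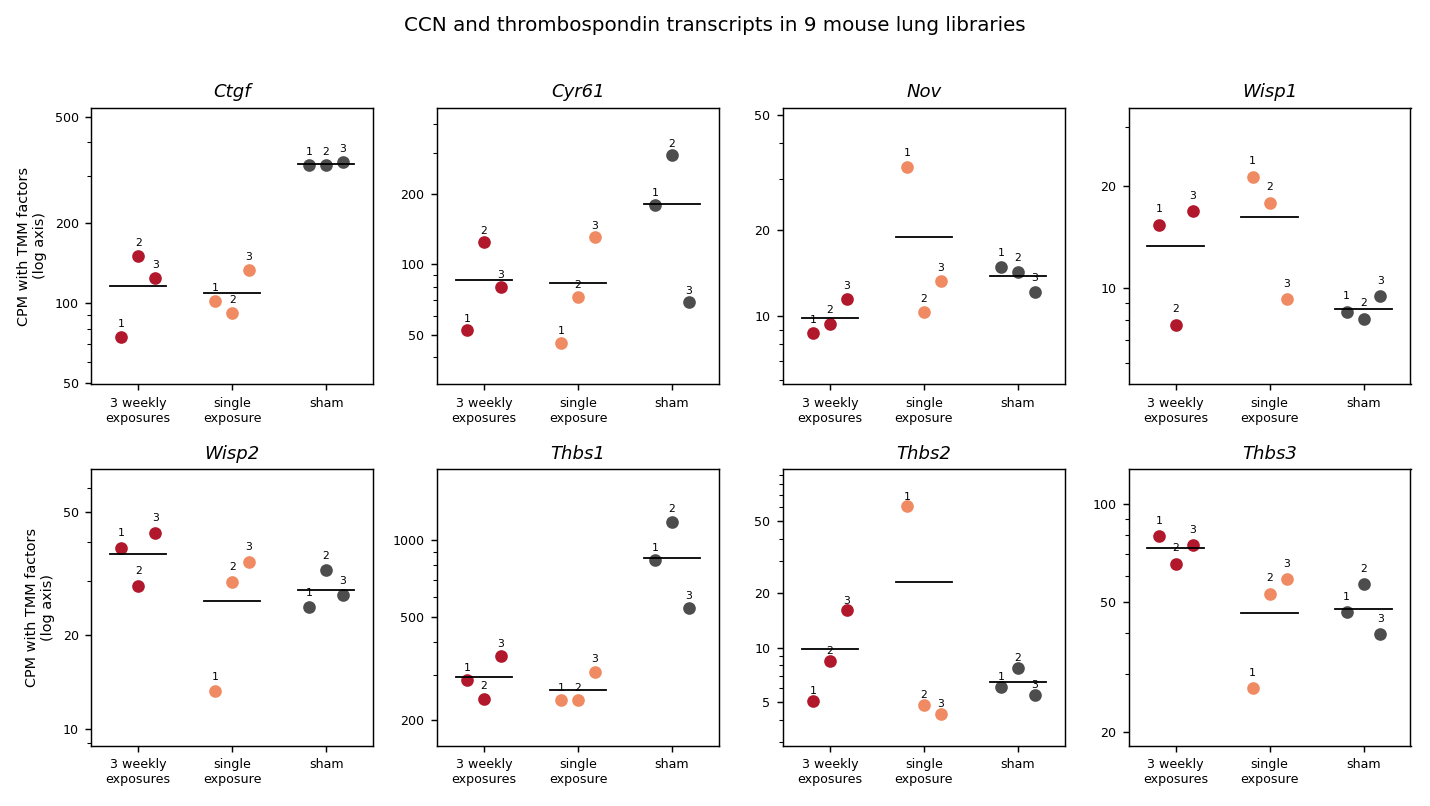
CPM of the 8 members (log axis) in the 3 libraries of each group, numbered by replicate, with a black line at the group mean. The 6 irradiated libraries lie at 74.3 to 149.6 CPM for Ctgf, below the sham libraries at 328 to 337 CPM, and library 1 of the single exposure stands apart in Nov, Wisp2, Thbs2 and Thbs3.

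Thbs3 encodes a pentameric thrombospondin without type 1 repeats, expressed in bone and many other tissues, on chromosome 3, 89215180 to 89226837, plus strand. It had 79.6, 65.5 and 74.7 CPM after 3 weekly exposures, 27.2, 53.0 and 58.7 CPM after a single exposure, and 46.4, 56.5 and 39.8 CPM in sham. The libraries of the 3 weekly exposures were above all others, and those of the single exposure and sham overlapped. The fitted log2 change was 0.62 ± 0.27 for 3 weekly exposures against sham and -0.04 ± 0.27 for a single exposure against sham (SE, n = 3 against 3). The value for a single exposure was 0.23 ± 0.17 without its library 1.

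Compared with a single exposure, Thbs3 was higher after 3 weekly exposures by 0.66 ± 0.27 on the log2 scale (SE, n = 3 against 3, 95% interval 0.06 to 1.27), higher in 3 of 3 libraries, and this did not pass (edgeR adjusted p = 0.753). Without library 1 of the single exposure, in which Thbs3 was lowest, the difference was 0.39 ± 0.18, with an edgeR adjusted p of 0.671. Mtx1, a mitochondrial import gene, is annotated across the whole of Thbs3 on the other strand, and without a stated use of strand reads of the pair may not be separated. Mtx1 had 20.4, 12.0 and 9.34 CPM after 3 weekly exposures, 18.1, 7.06 and 10.1 CPM after a single exposure and 11.9, 10.7 and 13.2 CPM in sham. Its groups overlapped in each contrast. On the authors' FPKM, Thbs3 had 24.2, 18.8 and 19.7 after 3 weekly exposures, 7.07, 16.1 and 18.8 after a single exposure, and 12.6, 15.0 and 17.5 in sham.

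Nov, or CCN3, which is known to restrain proliferation and to counter Ctgf in fibrosis models, is on chromosome 15, 54745702 to 54754039, plus strand. It had 8.73, 9.40 and 11.5 CPM after 3 weekly exposures, 33.2, 10.3 and 13.2 CPM after a single exposure, and 14.9, 14.3 and 12.2 CPM in sham. The libraries of the 3 weekly exposures were all below sham, with a log2 change of -0.48 ± 0.40 (SE, n = 3 against 3), while the single exposure was split by its library 1. The single exposure stood at 0.46 ± 0.40 against sham with that library, and at -0.23 ± 0.24 without it. Nov was lower after 3 weekly exposures than after a single exposure by -0.94 ± 0.40 (edgeR adjusted p = 0.754), and by -0.26 ± 0.24 without library 1 of the single exposure (edgeR adjusted p = 0.808).

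Thbs2, the close relative of Thbs1 that restrains angiogenesis and collagen fibril growth, is on chromosome 17, 14665500 to 14694235, minus strand. It had 5.06, 8.45 and 16.1 CPM after 3 weekly exposures, 60.2, 4.82 and 4.31 CPM after a single exposure, and 6.09, 7.73 and 5.51 CPM in sham. Library 1 of the single exposure held 397 of the fragments of this gene, against 27 to 98 in the other 8 libraries. Its group mates were below all sham libraries in CPM, but with 28 and 27 fragments against 28 in sham library 3. Counting error alone gives 17.0% within sham, so that gap is not beyond counting error. The log2 change of the single exposure was 1.84 ± 0.94 with that library and -0.49 ± 0.47 without it, and that of 3 weekly exposures was 0.61 ± 0.94 (SE, n = 3 against 3), which was 0.076 without library 3 of the 3 weekly exposures. The difference of 3 weekly exposures from a single exposure was -1.23 ± 0.91 (edgeR adjusted p = 0.822), and without library 1 of the single exposure it turned to 1.11 ± 0.47 (edgeR adjusted p = 0.671).

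Wisp1, or CCN4, a Wnt-induced gene of fibroblasts, is on chromosome 15, 66891320 to 66923201, plus strand. It had 15.4, 7.77 and 16.9 CPM after 3 weekly exposures, 21.4, 17.9 and 9.26 CPM after a single exposure, and 8.49, 8.10 and 9.45 CPM in sham. In each irradiated group 2 of 3 libraries were above all sham libraries. The log2 change was 0.61 ± 0.37 for 3 weekly exposures and 0.90 ± 0.37 for a single exposure against sham, the single exposure standing at 0.64 ± 0.38 without its library 1. For 3 weekly exposures against a single exposure it was -0.28 ± 0.36 (95% interval -1.10 to 0.53, edgeR adjusted p = 0.886). Omission of 1 library at a time moved this value between -0.57 and -0.0076, the smallest without library 2 of the 3 weekly exposures and the largest in size without library 3 of the single exposure.

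Wisp2, or CCN5, the CCN protein without the carboxy-terminal domain, is on chromosome 2, 163820861 to 163833146, plus strand. Its coding length of 753 bases is the shortest of the 5 CCN genes, whose others have 1044 to 1137. It had 38.4, 28.9 and 42.9 CPM after 3 weekly exposures, 13.2, 29.8 and 34.6 CPM after a single exposure, and 24.7, 32.4 and 27.0 CPM in sham. All groups overlapped. The log2 change was 0.39 ± 0.32 for 3 weekly exposures and -0.12 ± 0.33 for a single exposure against sham, and 0.20 ± 0.21 for a single exposure without its library 1. Set against a single exposure, 3 weekly exposures stood at 0.51 ± 0.32 (edgeR adjusted p = 0.800) with all libraries and 0.19 ± 0.21 without library 1 of the single exposure (edgeR adjusted p = 0.833).

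Ctgf, Cyr61 and Thbs1 did not pass a test between the irradiated groups either. The log2 difference of 3 weekly exposures from a single exposure was 0.10 ± 0.24 for Ctgf (95% interval -0.45 to 0.65, edgeR adjusted p = 0.940). It was 0.04 ± 0.54 for Cyr61 (-1.17 to 1.26, edgeR adjusted p = 0.991) and 0.16 ± 0.28 for Thbs1 (-0.46 to 0.79, edgeR adjusted p = 0.924). The intervals do not show that the irradiated groups were alike, least of all for Cyr61.

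**Figure D2:**
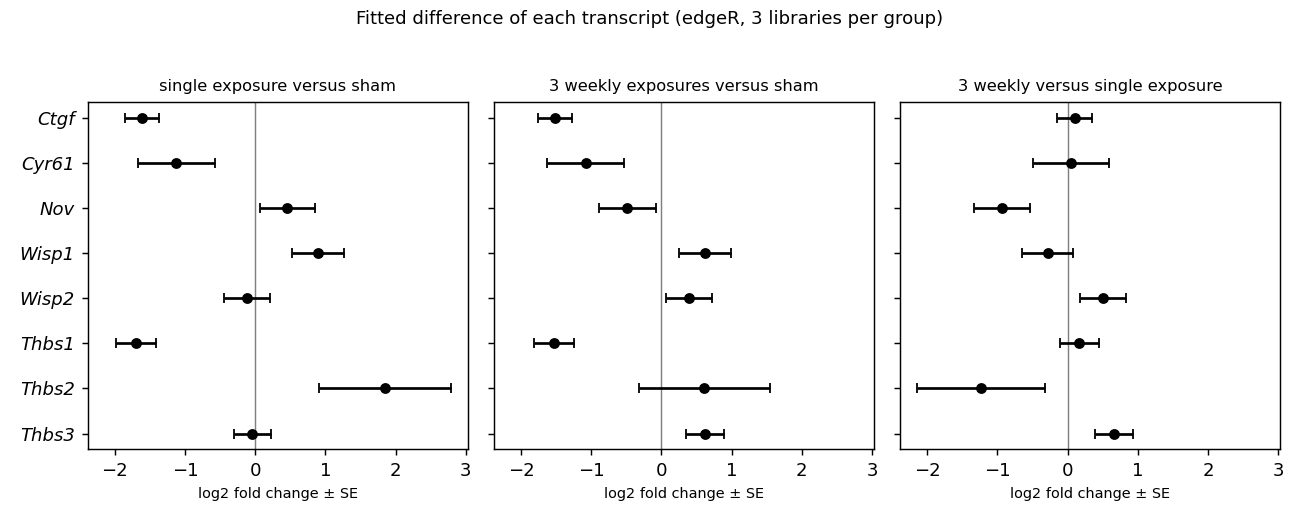
Fitted log2 fold change of each member with its SE (edgeR quasi-likelihood fit, 3 libraries per group) in each of the 3 contrasts. Ctgf and Thbs1 lie between -1.70 and -1.52 against sham in both irradiated groups and within 0.16 of 0 between the irradiated groups.

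Counts over the set stand against a broad background. edgeR called 0% of 14074 genes at an adjusted p under 0.05 in each of the 3 contrasts, and 0 of 8 members, while DESeq2 called 74 genes for 3 weekly exposures against sham, 156 for a single exposure against sham and 4 between the irradiated groups. Libraries of 3 weekly exposures were all below sham in 3 members (Ctgf, Nov and Thbs1), as in 11.1% of genes, and all above in 1 (Thbs3), as in 10.8%, so that 4 of 8 did not overlap with sham, as in 21.9% of genes. Libraries of a single exposure were all below sham in 2 of 8 members (Ctgf and Thbs1), as in 10.7% of all genes, and all above sham in 0, against 10.2%, or 20.9% in either direction. At an unadjusted p under 0.05, the fit for 3 weekly exposures against sham held 2 members as lower (3.64% of genes) and 1 as higher (4.26%), or 7.90% of genes (1112) in either direction. For a single exposure against sham it held 2 as lower (5.43%) and 1 as higher (6.60%), or 12.0% of genes (1693). Nothing is read from these counts, since the set was chosen on these contrasts. Libraries of 3 weekly exposures were all above those of a single exposure in 1 of 8 members (Thbs3), as in 4.10% of genes, and all below in 0, against 3.86%, or 7.96% in either direction. At an unadjusted p under 0.05 in that contrast stood 1 member as lower (Nov, against 3.74% of genes) and 1 as higher (Thbs3, against 2.79%), or 6.54% of genes (920) in all. Without library 1 of the single exposure 1 member did, Thbs2 as higher, against 7.35% of genes.

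Other tissue in the libraries moved with several members. Over the 9 libraries, Nov correlated with the summed smooth muscle markers at r = 0.96 and with the heart muscle markers at r = 0.95, and Thbs2 with smooth muscle at 0.91. Wisp2 and Thbs3 went with the alveolar type 2 markers at r = 0.88 and 0.85. These correlations describe libraries that share depth and makeup. The heart markers summed to 95.5, 62.6 and 191 CPM after 3 weekly exposures, against 387, 455 and 315 CPM in sham, so they were below sham in the same libraries as Nov, with 8 of 8 genes lower. The part of heart tissue in the values of Nov was not tested. Library 1 of the single exposure was the extreme in each of these lists, with a heart sum of 9281 CPM against 34.1 to 455 CPM elsewhere and an alveolar type 2 sum of 4301 CPM against 9279.8 to 15184 CPM.

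Ctgf and Thbs1 were about as low in that library as in its group mates. The 11 platelet and megakaryocyte markers, none of which was at 0 throughout, summed to 53.0 to 88.8 CPM after 3 weekly exposures and 52.0 to 85.0 CPM after a single exposure, against 99.2 to 150.0 CPM in sham. Over all libraries they went with Ctgf at r = 0.85, with Thbs1, which platelets store, at r = 0.64, and with Wisp1 at r = -0.82. These r values include the gap between irradiated and sham libraries. Within sham, and likewise within 3 weekly exposures, the libraries ranked by the platelet sum in the reverse of their order by Thbs1. After a single exposure the same library was highest in both. The part of platelet content in the values of Ctgf and Thbs1 was not tested. The 8 fibroblast markers summed to 2438 to 3210 CPM after 3 weekly exposures and 1855 to 3469 CPM after a single exposure, against 1760 to 1853 CPM in sham. The sum was above sham in all 6 irradiated libraries, in library 2 of the single exposure (1855 CPM) by little. By gene, 6 of 8 were higher and 2 lower in each contrast with sham. Wholly above sham were 4 after 3 weekly exposures and 1 after a single exposure, beside 10.8% and 10.2% of tested genes. The 10 endothelial markers summed to 2469 to 4204 CPM, 914 to 3534 CPM and 3101 to 3625 CPM after 3 weekly exposures, after a single exposure and in sham, and the groups overlapped.

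Immune cell markers also moved with Ctgf. The monocyte and macrophage markers summed to 313 to 433 CPM after 3 weekly exposures and 308 to 508 CPM after a single exposure, against 247 to 298 CPM in sham, and went with Ctgf at r = -0.77. The neutrophil markers summed to 86.7 to 139 CPM after 3 weekly exposures and 29.0 to 565 CPM after a single exposure, against 208 to 513 CPM in sham, and went with Ctgf at r = 0.67. All 7 neutrophil markers were lower after 3 weekly exposures with no overlap with sham. The part of these cells in the values of Ctgf and Thbs1 was not tested.

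**Figure D3:**
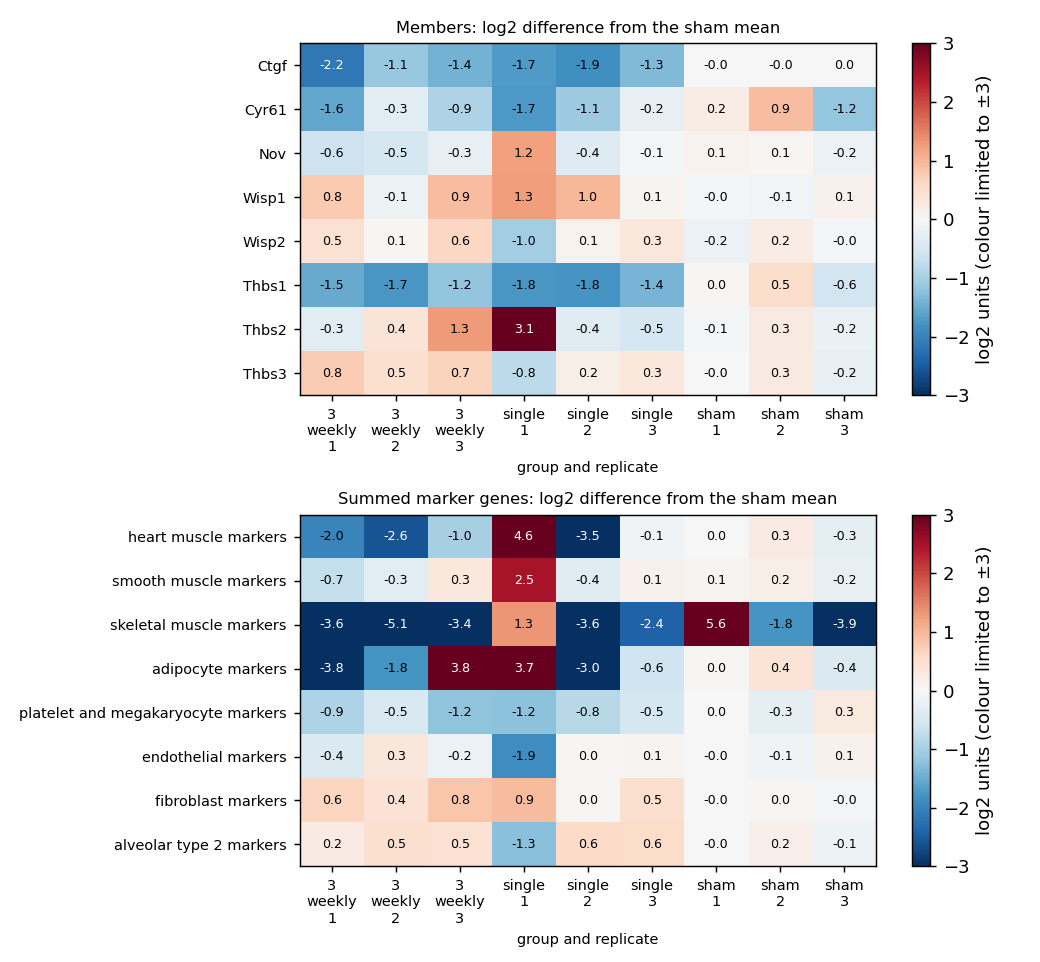
Log2 difference of each library from the sham mean for the 8 members (upper panel) and for summed marker genes of 8 cell types or tissues (lower panel), with libraries in columns by group and replicate. Library 1 of the single exposure has the largest heart and smooth muscle sums together with the largest Nov and Thbs2 values, while Ctgf and Thbs1 are below 0 in all 6 irradiated libraries.

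Among the genes most like Ctgf over the 9 libraries, by Pearson r of log2 CPM among 12234 genes with a mean of at least 5 CPM, were Slc6a15, an amino acid transporter (r = 0.97), Sbds, a ribosome maturation factor (0.97), Slc10a6 (0.96) and Rpl34 (0.95). Slc10a6, a steroid sulfate transporter, had 8.38, 15.8 and 13.6 CPM after 3 weekly exposures, 8.34, 13.4 and 16.1 CPM after a single exposure and 35.7, 36.4 and 30.5 CPM in sham. All its irradiated libraries were below sham, which largely follows from its choice by likeness to Ctgf.

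The genes most like Thbs1 were Sik1, a salt-inducible kinase (r = 0.96), Atf4, the transcription factor of the integrated stress response (0.96), Fosl2, an AP-1 subunit (0.96), Shfm1 (0.96) and Adamts1 (0.95). Adamts1 encodes a secreted protease that can cleave thrombospondins. It had 78.0, 100.7 and 156 CPM after 3 weekly exposures, 103, 89.9 and 183 CPM after a single exposure, and 344, 497 and 207 CPM in sham. Its order within sham, highest in library 2 and lowest in library 3, was that of Thbs1, for likeness to which it is named here. These correlations rest on the same libraries and on the gap between irradiated and sham samples.

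Other genes of the pathways around these proteins were followed as lists, each described beside all tested genes and each with 0 genes called by edgeR at an adjusted p under 0.05 in every contrast. Over all tested genes the median log2 change was 0.02 for 3 weekly exposures and 0.03 for a single exposure against sham, with 7.90% and 12.0% of genes at an unadjusted p under 0.05. The lists were chosen with earlier results of these libraries known.

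YAP and TAZ target genes other than Ctgf and Cyr61 were not lower as a list. Of 20 genes, 11 were higher and 9 lower after 3 weekly exposures (median 0.05), and 10 were higher and 10 lower after a single exposure (median 0.03). At an unadjusted p under 0.05 stood 1 and 3 genes, all higher. Axl, a receptor tyrosine kinase, had 198, 164 and 230.1 CPM after 3 weekly exposures, 215, 234 and 203 CPM after a single exposure, and 147, 152 and 161 CPM in sham, so that its irradiated libraries were all above sham. The log2 change of Axl was 0.36 ± 0.15 for 3 weekly exposures and 0.50 ± 0.15 for a single exposure (SE, n = 3 against 3).

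The next genes after 3 weekly exposures were Arhgef17, a guanine nucleotide exchange factor (0.40 ± 0.20), and Nt5e, the ectonucleotidase CD73 (-0.39 ± 0.23). After a single exposure they were Myof, the membrane repair protein myoferlin (0.48 ± 0.16), and Ccdc80, a matrix protein (1.85 ± 0.79). Ccdc80 had 231, 25.1 and 40.1 CPM after a single exposure, against 29.3, 29.2 and 23.8 CPM in sham, so that its value rests on library 1 of the single exposure. Without that library, 3 YAP and TAZ targets were higher and 3 lower at an unadjusted p under 0.05 after 3 weekly exposures, beside 12.2% of all genes. In the contrast between irradiated groups, 2 of 20 genes had an unadjusted p under 0.05, both lower after 3 weekly exposures. Ankrd1, a cardiac ankyrin repeat gene as well as a YAP target, stood at -3.33 ± 1.05, and F3, tissue factor, at -0.90 ± 0.38, with Myof next at -0.27 ± 0.16. Ankrd1 had 244 CPM in library 1 of the single exposure, the one with cardiac transcripts, against 4.89 to 21.5 CPM in the other 8. F3 had 25.7, 36.4 and 41.8 CPM after 3 weekly exposures, against 109, 39.3 and 45.0 CPM after a single exposure, and was likewise highest in library 1.

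Hippo pathway genes, the kinases, adaptors and TEAD factors that control YAP and TAZ, had medians of 0.04 for 3 weekly exposures and 0.04 for a single exposure against sham. Of 17 genes, 0 had an unadjusted p under 0.05 after 3 weekly exposures, with Sav1 (0.27 ± 0.13), Amot (0.34 ± 0.18) and Stk3 (0.26 ± 0.16) nearest. After a single exposure 4 did, among them the adaptors Mob1b (0.44 ± 0.14) and Sav1 (0.36 ± 0.13) as higher and Vgll4, a competitor of YAP for TEAD (-0.51 ± 0.20), as lower. Set against a single exposure, Mob1b stood lower (-0.40 ± 0.14) and Tead3 higher (0.55 ± 0.20) after 3 weekly exposures, with Vgll4 at 0.39 ± 0.20. Without sham library 1 the count after a single exposure was 0 for the Hippo genes and 1 for the YAP and TAZ targets, while the share over all genes was 5.34%.

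Early growth and stress response genes, which like Ctgf and Cyr61 respond quickly to serum and stress, had the lowest median of these 7 pathway lists against sham in both irradiated groups. Of 18 genes, 17 were lower after 3 weekly exposures (median -1.13, 12 at an unadjusted p under 0.05) and 15 after a single exposure (median -0.73, 9 at an unadjusted p under 0.05). Maff, a small Maf transcription factor, had 13.4, 9.67 and 14.1 CPM after 3 weekly exposures, 8.50, 10.5 and 15.2 CPM after a single exposure and 32.2, 32.8 and 35.2 CPM in sham. Its log2 change was -1.43 ± 0.25 for 3 weekly exposures and -1.55 ± 0.25 for a single exposure. The other genes with the smallest p were the nuclear receptors Nr4a3 (-2.33 ± 0.40) and Nr4a2 (-1.78 ± 0.40) after 3 weekly exposures, and Nr4a3 (-1.81 ± 0.39) and Klf4 (-1.48 ± 0.35) after a single exposure.

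With irradiated groups compared, 1 of these 18 genes had an unadjusted p under 0.05, the zinc finger gene Egr1 (-0.97 ± 0.43), followed by Fosb (-1.58 ± 0.73) and Nr4a1 (-0.92 ± 0.56). Without sham library 1, 7 genes were lower at an unadjusted p under 0.05 after 3 weekly exposures and 9 after a single exposure, against 3.44% and 5.34% of all genes in either direction. Without library 1 of the single exposure, the median after a single exposure was -0.46. At an unadjusted p under 0.05, 9 genes were then lower and 1 higher, against 13.5% of all genes in either direction.

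Genes of the actin cytoskeleton that serum response factor and its MRTF coactivators control, a route that also reaches Ctgf and Cyr61, had medians of -0.19 after 3 weekly exposures and -0.12 after a single exposure, with 12 and 10 of 15 lower. Filip1l had 68.4, 78.8 and 74.6 CPM after 3 weekly exposures, 109, 95.2 and 78.4 CPM after a single exposure, and 119.8, 132 and 104 CPM in sham. Its log2 change was -0.69 ± 0.15 for 3 weekly exposures and -0.34 ± 0.15 for a single exposure, and the difference between them was -0.35 ± 0.15 (edgeR adjusted p = 0.754). Mkl2, which encodes an MRTF coactivator, was higher by the fit (0.32 ± 0.13 and 0.41 ± 0.13), Srf itself stood at -0.69 ± 0.36 after 3 weekly exposures, and Actg1, gamma actin, at -0.55 ± 0.19 after a single exposure. Fhl2 (-3.17 ± 1.31) and Tpm1 (-1.63 ± 0.74), both abundant in heart, were the others named between the irradiated groups. Fhl2 had 63.0 CPM in library 1 of the single exposure against at most 7.35 CPM elsewhere.

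TGF-beta ligands, latency proteins and feedback genes, which surround the growth factor that Thbs1 can activate and that induces Ctgf, were mostly higher after 3 weekly exposures, with 15 of 19 higher and a median of 0.20. After a single exposure 10 of 19 were higher, with a median of 0.02. After a single exposure Skil, a SMAD corepressor, stood at -0.34 ± 0.24 and Smad7, an inhibitory SMAD, at 0.33 ± 0.28, with 0 of 19 genes at an unadjusted p under 0.05. After 3 weekly exposures 3 genes were higher and 2 lower at that p.

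Pmepa1, a TGF-beta feedback inhibitor, had the smallest p of the list after 3 weekly exposures, at 0.56 ± 0.16, with Ltbp3, a latent TGF-beta binding protein, at 0.54 ± 0.19. Between the irradiated groups Ltbp3 (0.66 ± 0.19), Pmepa1 (0.54 ± 0.16) and Ltbp2 (1.24 ± 0.37) were higher after 3 weekly exposures than after a single exposure, each in 3 of 3 libraries, with an edgeR adjusted p of 0.753 for each. Ltbp2 had 284, 152 and 187 CPM after 3 weekly exposures, against 44.9, 99.8 and 119 CPM after a single exposure.

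Receptors and partners of CCN proteins and thrombospondins had medians of 0.11 after 3 weekly exposures and -0.03 after a single exposure over 17 genes. Adamts1 was the lowest of them at -1.65 ± 0.39 and -1.48 ± 0.39. Calr, calreticulin, through which thrombospondin 1 acts on focal adhesions, had 465, 411 and 427 CPM after 3 weekly exposures, 488, 416 and 391 CPM after a single exposure, and 289, 295 and 293 CPM in sham. Its log2 change was 0.57 ± 0.14 after 3 weekly exposures and 0.56 ± 0.14 after a single exposure. The integrin subunits Itgb3 and Itgav stood at -0.59 ± 0.25 after 3 weekly exposures and at 0.49 ± 0.15 after a single exposure. Between the irradiated groups 0 of 17 had an unadjusted p under 0.05, with Lrp5 (0.45 ± 0.22), Itgav (-0.28 ± 0.15) and Itga3 (0.50 ± 0.35) nearest.

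Other matricellular genes centred at medians of 0.22 after 3 weekly exposures and 0.12 after a single exposure, and 0 of 12 had an unadjusted p under 0.05 against sham. Tnc, tenascin C, stood at 0.98 ± 0.50 and 0.97 ± 0.50, Sparc, a collagen-binding glycoprotein, at 0.46 ± 0.26 and Igfbp7 at 0.34 ± 0.20 after 3 weekly exposures, and Fbln1, fibulin 1, at 0.89 ± 0.46 and Igfbp7 at -0.35 ± 0.20 after a single exposure. Between the irradiated groups Igfbp7 was higher by 0.69 ± 0.20 (edgeR adjusted p = 0.753) and Smoc2 lower by -1.13 ± 0.48 after 3 weekly exposures, with Sparc at 0.37 ± 0.26. Smoc2 had 5.24, 13.1 and 11.8 CPM after 3 weekly exposures, against 39.3, 11.5 and 15.5 CPM after a single exposure, with library 1 again the highest. The remaining family members Wisp3, Thbs4 and Comp had 7, 71 and 46 fragments over all libraries and were not tested. Of these, library 1 of the single exposure held 33 fragments of Thbs4 and 41 of Comp.

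**Figure D4:**
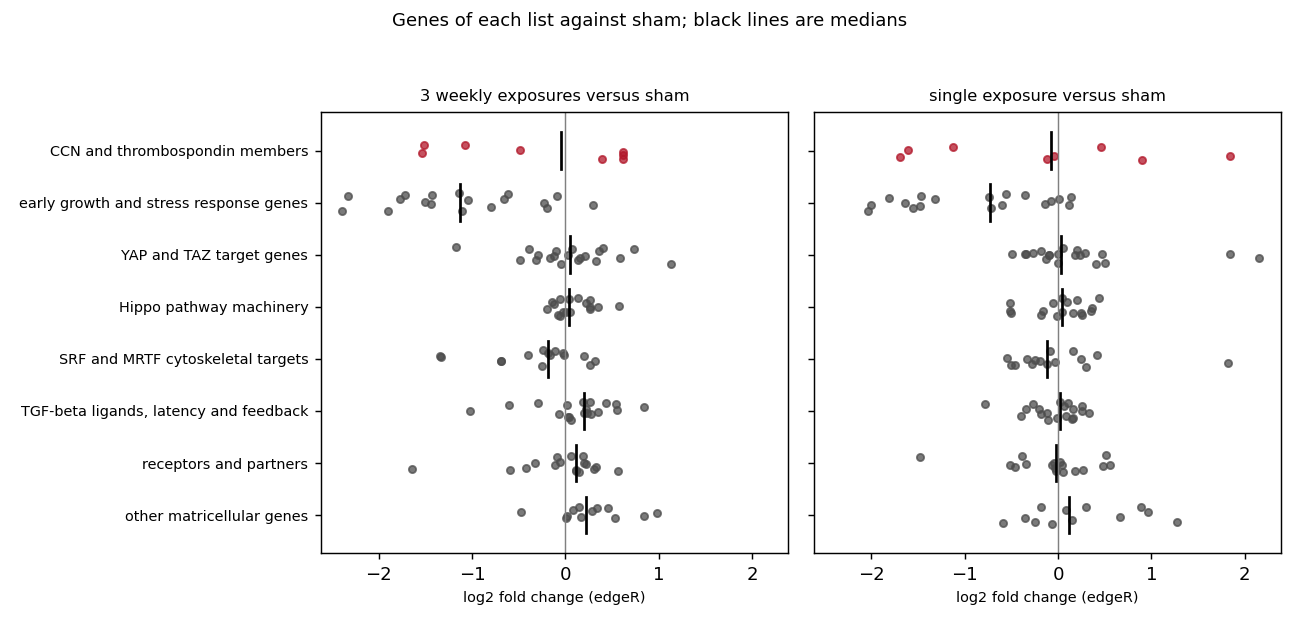
Log2 fold change against sham of the members (red) and of the genes of each list (grey), 1 point per gene, after 3 weekly exposures (left) and after a single exposure (right), with black lines at the medians. The early growth and stress response genes have medians of -1.13 and -0.73, while the YAP and TAZ targets centre at 0.05 and 0.03 and the members spread from -1.53 to 0.62 and from -1.70 to 1.84.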

How the data were processed

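Lung RNA of 9 libraries was depleted of ribosomal RNA and sequenced for 150 cycles, per the labels' protocols. Per the submitters' processing notes, cutadapt 1.9.3, HISAT2 2.0.4 and the build mm10 were used. Which program estimated expression is not given in the sources used here. Per library, the deposited table holds FPKM and estimated counts, per the file headers. The authors' estimated counts were not whole but multiples of 1 step per library (0.854 to 1.19, with 91.6 to 92.9% of values within 0.1 of a whole multiple), so they were divided by the step and rounded.

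edgeR 4.0.16 was run in R 4.3.3 with filterByExpr, TMM and 1 quasi-likelihood fit over 9 libraries (6 residual degrees of freedom), with Benjamini-Hochberg adjustment over 14074 genes. SE was taken as the size of the log2 change divided by the root of F. DESeq2 1.42.0, limma 3.58.1 on log2(FPKM + 1) or log2(FPKM + 0.1) for genes with at least 1 FPKM in 3 libraries, RLE factors, no filter, unscaled counts, 6 libraries only, a replicate block and leaving out libraries were the alternatives. The fit was tested on simulated counts. Named genes were the members, the 3 genes of each list with the smallest p per contrast and the 5 most like Ctgf and Thbs1; Mtx1 was added after its overlap with Thbs3 was seen, and some genes the rule names are not reported here. Members and lists were chosen with earlier results of these data known. Depth limits precision for genes with few fragments, and errors from counting cover counting only.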

Additional observations from a re-analysis of the deposited data

How the results depend on the processing

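edgeR called 0 genes in each contrast under RLE factors, no filter on low counts, unscaled counts and each omission of 1 library. DESeq2 called 74 genes for 3 weekly exposures against sham, 156 for a single exposure against sham and 4 between the irradiated groups. Ctgf and Thbs1 were among those against sham, from which nothing is read, since the set was chosen on these contrasts. DESeq2 without sham library 1, an alternative chosen after seeing the data, called 7, 17 and 4. limma called 0, 5 and 1 with a pseudocount of 1 and 1, 3 and 1 with 0.1, and edgeR on only the 6 libraries compared called 9 for 3 weekly exposures against sham. The replicate numbers were not taken to pair libraries, since deviations of same-numbered libraries correlated at -0.08 to 0.31 and at most 3 of 6 libraries correlated best with their own number; with the replicate block edgeR called 0 genes in each contrast.

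Ctgf, Cyr61 and Thbs1 were lower than sham under all 18 alternatives in both contrasts. Ctgf stood at -1.74 to -1.28 after 3 weekly exposures and -1.78 to -1.50 after a single exposure, Thbs1 at -1.77 to -1.23 and -1.94 to -1.39. For Ctgf and Thbs1 the sign could hardly turn, since every irradiated library lay below every sham library. The alternatives reuse the same libraries and the set was chosen on these contrasts, so nothing is read from the shared sign. Without library 1 of the single exposure, Nov and Thbs2 turned to -0.23 and -0.49 in that group.

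Between the irradiated groups the small differences of Ctgf and Cyr61 changed sign under some alternatives. They were -0.066 and -0.033 with limma and a pseudocount of 1, -0.070 and -0.034 with 0.1, -0.13 and -0.33 without library 2 of the 3 weekly exposures, and -0.01 and -0.04 without library 2 of the single exposure. Cyr61 was -0.026 with the replicate block. Leaving out library 1 of the single exposure gave -0.24 for Cyr61 and 1.11 for Thbs2. Over all omissions of 1 library, Ctgf ran from -0.13 to 0.34 and Cyr61 from -0.33 to 0.53. The cause was not tested.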

Other observations

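The spread of Ctgf over the sham libraries (1.37%) was below the 2.34% that counting error alone gives, and that of Wisp1 was 7.96% against 14.5%. Thbs3 ranked the sham libraries differently by unit: sham library 3 had the lowest CPM (39.8) and the highest FPKM (17.5). Wisp1 ran opposite to Cyr61 (r = -0.79) and Ctgf (r = -0.74) over the 9 libraries, and within groups at -0.69 and -0.67, as a description of libraries that share depth and makeup.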
